A study of Mus musculus with 2 samples.

Results

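The chemokine ligand and receptor genes were described here across the mast cells, macrophages and fibroblasts of colonies grown from mouse aorta. They were chosen by symbol: Ccl, Cxcl, Ccr or Cxcr followed by a number and at most 1 letter, or Cx3cl1, Cx3cr1, Xcl1, Xcr1, Ackr1, Ackr2, Ackr3 or Ackr4. Of 32285 gene rows, 66 met this rule, namely 44 ligand rows, 18 rows of signalling receptors and 4 rows of atypical receptors. Ccl19, Ccl21a, Ccl21b, Ccl21c and Ccl27a each stand on more than 1 row, for near-identical copies whose shared reads the counting could split or leave out. No unique molecular identifier (UMI, the tag of 1 captured RNA molecule) was counted for 8 rows, and 58 had at least 1.

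The study's title concerns progenitors of macrophages and endothelial cells in the aorta after birth. Per the labels' protocols, the aortas came from 2 C57BL/6J males, 12 weeks old and with no genetic change or treatment named, and were cleaned and digested with the enzyme mix Liberase. The cells grew for 14 days in methylcellulose, a thick gel that keeps the progeny of each progenitor together as a colony. The colonies of macrophage type (CFU-M) were dispersed, DAPI-negative live cells were sorted and marked by MULTI-seq, a method that gives every suspension its own DNA tag before pooling, and 1 droplet library was made with the 10x 3′ kit. That pooled library of both mice is the single sample analysed here, so no value has a replicate check, and intervals are 95% intervals of counting error only.

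Chemokines are small secreted proteins that draw cells along a gradient or hold them in place, by binding receptors that couple to inhibitory G proteins. CC and CXC ligands are named for the spacing of their first cysteines, and many bind several receptors. Inflammatory members such as Ccl2 and Cxcl2 are made on activation and recruit monocytes and neutrophils, while homeostatic members such as Cxcl12 and Ccl19 are made by stroma. Atypical receptors bind chemokines without G protein signalling and move or degrade them.

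The matrix held 593248944 gene UMIs in 34813 barcodes, and 30755 cells passed the filters and the removal of called doublets. Although the labels give macrophage-colony progenitors, 60.7% of these cells (18680) were mast cell-like. A further 1640 cells (5.33%) were macrophage-like and 3286 (10.7%) fibroblast-like, and the summed level of each class's own markers was 59294, 14713 and 13746 UMIs per 1000000 gene UMIs (CPM). These names came from markers, not from the authors. The 3 classes mostly carried different suspension tags, as given below, so class and suspension cannot be told apart in any comparison of classes. Of the other cells, 3404 held markers of more than 1 class and 3660 stayed unnamed. Xist, which is expressed in female cells, stood at 347 to 733 CPM in the 3 classes, against the label of male mice. The Y-linked Ddx3y, which goes with that label, stood at 19.5 to 63.5 CPM. Both were thus counted in every class, and the cause was not tested. The median cell held 29712 UMIs in the fibroblast-like class, 12509 in the mast cell-like class and 7409.5 in the macrophage-like class, so the classes differ in depth.

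RNA of the mast cells was found in droplets of the other classes. Of 2726 cells in the macrophage-like cluster, 1036 (38.0%) held mast cell markers at 10% or more of the mast cell median, and so did 2116 of 5485 (38.6%) in the fibroblast-like clusters. These mixed droplets were set aside by a rule chosen after they were seen, and 148 and 108 cells lay between 8% and 12%. With the mixed droplets kept, the ratio to the next class was more than 1.5 times lower for several members, among them Ackr1, Ccl3, Ccl4, Ccl6, Ccl9, Ccl12, Ccr2, Cxcl2, Cxcl9, Cxcl10 and Cxcr4. In the cells kept, mast cell markers stood at 0.0373 to 0.0548 times their mast cell level in macrophage-like cells and 0.0210 to 0.0293 times in fibroblast-like cells. Macrophage markers stood at 0.00196 to 0.00493 times their own level in mast cell-like cells. A member whose level in a class did not exceed the highest of such ratios times its level in the other classes is read below as background there. These ratios rest on the same markers as the rule for mixed droplets, which limited them in advance.

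Macrophage-like cells held by far the most chemokine RNA. Ligand UMIs made up 1.35% of their gene UMIs, against 0.219% in mast cell-like and 0.139% in fibroblast-like cells. Receptor UMIs summed to 588, 107 and 26.7 CPM in the same order. At 10 CPM or more stood 22 of 66 rows in macrophage-like cells (33.3%; all genes, 23.6%). There were 13 in fibroblast-like cells (19.7%; all genes, 26.2%) and 8 in mast cell-like cells (12.1%; all genes, 23.8%), in both classes a smaller share than that of all genes. All 22 in macrophage-like cells were above background, as were 12 of 13 and 6 of 8 in the other classes. The exceptions were Cxcl2 in fibroblast-like cells and Cxcl2 and Cxcl12 in mast cell-like cells.

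A class was said to lead a member at 10 CPM or more and at least 4 times the level in each of the other classes. Macrophage-like cells led 15 members (22.7%; all genes, 2.08%). Fibroblast-like cells led 5 (7.58%; all genes, 3.23%) and mast cell-like cells 1 (1.52%; all genes, 1.44%), the last of these near the share of all genes. In all, 28 rows reached 10 CPM in a class, 22 ligands and 6 receptors. Just inside this limit stood Cx3cl1 (11.3 CPM among fibroblast-like cells) and just outside Ccl5 (9.29 CPM among macrophage-like cells). The other 30 rows with a UMI lay at or below that value. The median over all member rows was 1.24 CPM for macrophage-like cells (all genes, 0.219), 0.578 CPM for fibroblast-like cells (all genes, 0.366) and 0.320 CPM for mast cell-like cells (all genes, 0.132). Levels are UMIs counted near the 3′ end, 1 per molecule, so CPM of different genes are not scaled by gene length.

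**Figure D1:**
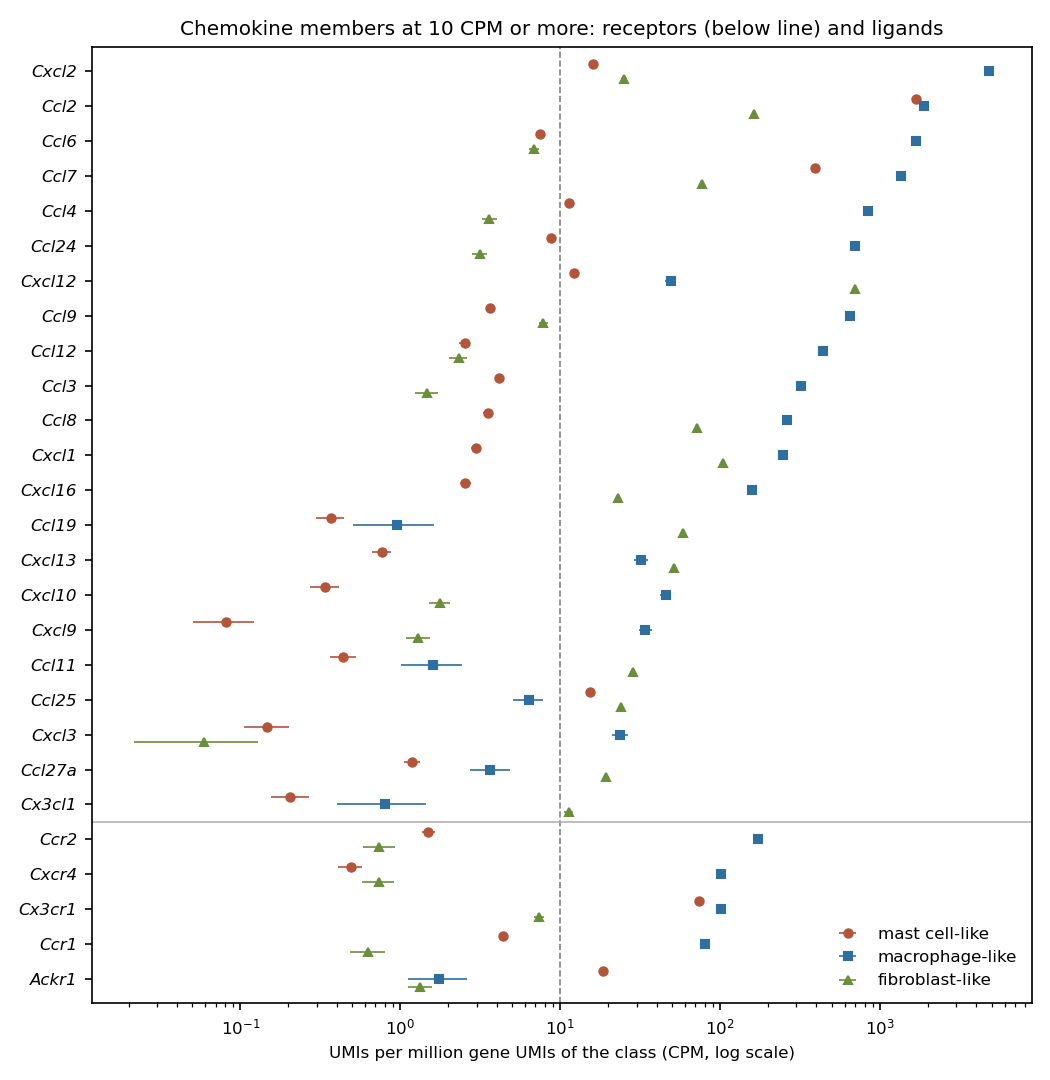
Level of members at 10 CPM or more in a class, in CPM on a log axis, with 1 symbol per class and bars for the 95% counting interval; receptors lie below the grey line and the dashed line marks 10 CPM. Squares (macrophage-like) lie furthest right for most members, Ccl2 has nearly the same level in mast cell-like and macrophage-like cells (1688 and 1888 CPM), and triangles lead for Cxcl12 and Ccl19.

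The monocyte chemoattractant genes lie side by side on chromosome 11 (GRCm38, 82035571–82305690), in the order Ccl2, Ccl7, Ccl11, Ccl12, Ccl8 and Ccl1. Ccl2 (chromosome 11, 82035571–82037453, plus strand; the small gene Gm17268 overlaps it on the other strand) encodes the main attractant of monocytes through Ccr2. It stood at 1688 CPM (1683 to 1693) among mast cell-like, 1888 CPM (1865 to 1911) among macrophage-like and 162 CPM (159.6 to 165) among fibroblast-like cells. It was the gene of rank 94 by level in mast cell-like and 64 in macrophage-like cells. The ratio of both was 1.12 (1.10 to 1.13), and within the mast cell-like class Ccl2 alone made up 77.1% of ligand UMIs. This ratio depends on the naming, since an unnamed cluster with all mast cell markers, described below, had higher Ccl2 and is in neither class.

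Ccl7 (chromosome 11, 82045712–82047525, plus strand), which binds Ccr2 and other CC receptors, had 1344 CPM (1325 to 1364) among macrophage-like, 389 CPM (387 to 392) among mast cell-like and 77.1 CPM (75.4 to 78.8) among fibroblast-like cells. The difference between macrophage-like and mast cell-like cells was 3.45-fold, larger than for Ccl2. It made up 17.8% of ligand UMIs of mast cell-like cells, so that nearly all ligand RNA of this class came from Ccl2 and Ccl7. Both genes were above background in all 3 classes.

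The next genes of the block stood below 10 CPM among mast cell-like cells. Ccl12, a rodent Ccr2 ligand, stood at 440.4 CPM (429 to 452) among macrophage-like cells and at 2.52 and 2.31 CPM among mast cell-like and fibroblast-like cells, a 175-fold difference to the next class. Ccl8, which in mice acts through Ccr8, had 261 CPM among macrophage-like, 71.7 CPM among fibroblast-like and 3.52 CPM among mast cell-like cells. Ccl11, the eosinophil attractant eotaxin, was led by fibroblast-like cells with 28.4 CPM (27.4 to 29.5) against 1.61 and 0.441 CPM among macrophage-like and mast cell-like cells. Genes of 1 block thus had 3 different distributions: Ccl2 and Ccl7 in all classes, Ccl12 and Ccl8 highest in macrophage-like cells, and Ccl11 in fibroblast-like cells. Ccl1, a Ccr8 ligand singled out after its values were seen, stood below the limit at 8.42 CPM (8.08 to 8.77) among mast cell-like cells and had only 6 UMIs over all macrophage-like and 19 over all fibroblast-like cells.

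A further block on the same chromosome (83525778–83664683) holds Ccl5, Ccl9, Ccl6, Ccl3 and Ccl4, and its last 4 genes were led by macrophage-like cells. Ccl6 and Ccl9, rodent ligands of Ccr1, stood at 1673 CPM (1652 to 1695) and 651 CPM (638 to 665) there. In mast cell-like cells they had 7.45 and 3.65 CPM and in fibroblast-like cells 6.87 and 7.86 CPM. Ccl3 and Ccl4, the macrophage inflammatory proteins that attract monocytes and T cells, had 321 CPM (312 to 331) and 846 CPM (830.3 to 861) among macrophage-like cells. Ccl4 was also above background in mast cell-like cells, with 11.3 CPM against an upper background of 4.25 CPM. Ccl5, which attracts T cells, was the exception in the block at 9.29 CPM among macrophage-like cells.

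Ccl24 (chromosome 5, 135569937–135573049, minus strand), another eosinophil attractant, was led by macrophage-like cells with 701 CPM (687 to 715). It had 8.78 CPM among mast cell-like and 3.14 CPM among fibroblast-like cells. The eotaxins Ccl11 and Ccl24 were therefore highest in different classes, Ccl11 in fibroblast-like and Ccl24 in macrophage-like cells.

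The homeostatic CC ligands were led by fibroblast-like cells or spread over classes. Ccl19, which guides T cells and dendritic cells through Ccr7, stood at 58.5 CPM (57.0 to 60.0) among fibroblast-like, 0.951 CPM among macrophage-like and 0.368 CPM among mast cell-like cells. Ccl27a, a ligand of Ccr10, had 19.2 CPM (18.4 to 20.1) among fibroblast-like and 3.66 and 1.19 CPM among macrophage-like and mast cell-like cells. Il11ra1 overlaps Ccl27a on the other strand and was also highest in fibroblast-like cells (118 CPM), and the use of strand in the counting is not given in the sources used here. Ccl25, a Ccr9 ligand known from thymus and gut, had 23.8, 15.4 and 6.36 CPM among fibroblast-like, mast cell-like and macrophage-like cells. Its largest ratio to the next class was 1.55, and Elavl1 overlaps it on the other strand with 65.4 to 83.0 CPM in the 3 classes.

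The neutrophil attractants Cxcl1, Cxcl2 and Cxcl3, ligands of Cxcr2, lie on chromosome 5 within 147 kb that also hold Cxcl5 and Cxcl15. Cxcl2 was the most abundant member of all, at 4776 CPM (4739 to 4813) among macrophage-like cells, where it was the gene of rank 17 by level and made up 35.3% of ligand UMIs. It had 25.1 CPM among fibroblast-like and 16.1 CPM among mast cell-like cells, both read as background. In fibroblast-like cells 46.4% of its UMIs lay in 33 cells, which also held 37.3% of the Ccr2 and 5.66% of the macrophage marker UMIs of that class. Cxcl3 had 23.7 CPM (21.2 to 26.4) among macrophage-like cells and 40 and 6 UMIs in all mast cell-like and fibroblast-like cells. Cxcl1 was shared: 247 CPM (239 to 255) among macrophage-like and 104 CPM (102 to 106) among fibroblast-like cells, a 2.37-fold difference, with 2.99 CPM among mast cell-like cells, under the 3.48 CPM that background allowed.

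The 250 bases before the start of these 3 genes hold the same κB letters, the motif of the factor NF-κB. They are shown because the 3 genes are neighbours and all were highest in macrophage-like cells. The motif, GGGA and TTCC with any 2 bases between them, was searched on both strands in RefSeq promoter windows (GRCm38.p6), in which 21 of the 28 members were found. It was present for 4 of these (19.0%), Cxcl1, Cxcl2, Cxcl3 and Cxcl10, and in 1.21% of all windows of this length. Cxcl12, the leading fibroblast-like member, is shown beside them and holds no match. Members without a window, among them Ccl2, Ccl7, Ccl4, Ccl11, Ccl24 and Cxcl16, were not searched, so nothing is known here of their motifs. A member with several windows was counted if any of them matched, here and for the motifs below. The share of all windows counts each window, so the percentages of members and of windows have unlike units. Capitals mark the motif, and each line runs 5′ to 3′ on the gene's strand up to the base before the start.

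Cxcl1, chr5:90890995-90891244, plus strand: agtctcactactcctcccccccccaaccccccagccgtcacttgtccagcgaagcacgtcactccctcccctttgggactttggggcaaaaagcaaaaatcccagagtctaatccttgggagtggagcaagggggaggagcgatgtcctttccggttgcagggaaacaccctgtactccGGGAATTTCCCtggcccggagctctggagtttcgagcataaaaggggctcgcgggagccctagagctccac
Cxcl2, chr5:90903649-90903898, plus strand: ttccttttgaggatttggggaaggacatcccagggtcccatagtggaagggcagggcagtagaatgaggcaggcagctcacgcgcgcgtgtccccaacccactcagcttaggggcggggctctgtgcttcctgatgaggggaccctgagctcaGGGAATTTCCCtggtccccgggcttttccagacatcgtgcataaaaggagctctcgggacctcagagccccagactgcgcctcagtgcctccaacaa
Cxcl3, chr5:90785851-90786100, plus strand: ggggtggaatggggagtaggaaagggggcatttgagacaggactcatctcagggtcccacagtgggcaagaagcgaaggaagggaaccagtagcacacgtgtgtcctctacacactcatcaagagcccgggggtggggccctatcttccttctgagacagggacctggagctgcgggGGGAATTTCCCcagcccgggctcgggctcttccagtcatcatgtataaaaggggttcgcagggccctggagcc
Cxcl10, chr5:92348890-92349139, minus strand: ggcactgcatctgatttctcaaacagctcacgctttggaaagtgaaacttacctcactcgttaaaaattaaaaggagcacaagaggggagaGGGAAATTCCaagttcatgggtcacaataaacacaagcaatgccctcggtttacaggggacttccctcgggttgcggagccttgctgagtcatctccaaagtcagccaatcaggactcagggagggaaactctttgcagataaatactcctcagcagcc
Cxcl12, chr6:117168285-117168534, plus strand: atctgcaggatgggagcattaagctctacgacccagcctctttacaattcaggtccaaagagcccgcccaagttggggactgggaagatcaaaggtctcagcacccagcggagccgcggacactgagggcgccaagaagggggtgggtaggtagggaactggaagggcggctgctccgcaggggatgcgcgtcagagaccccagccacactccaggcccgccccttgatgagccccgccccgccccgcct

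In Cxcl1, Cxcl2 and Cxcl3 matches on both strands overlap, and the first capital lies 71, 97 and 73 bases before the start. In Cxcl10 it lies 159 bases before it. The AP-1 letters TGANTCA occurred for 3 of 21 members (14.3%, all windows 6.75%), the C/EBP letters TTGCNNAA for 2 (9.52%, all windows 9.56%) and the PU.1 letters GAGGAAGT for 0 (all windows 2.44%). A match is a description of the letters and shows no binding.

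Cxcl9 and Cxcl10, interferon-induced attractants of T cells through Cxcr3, lie next to each other on chromosome 5 and were led by macrophage-like cells. Cxcl10 stood at 45.9 CPM (42.3 to 49.6) there and at 1.76 and 0.338 CPM among fibroblast-like and mast cell-like cells. Cxcl9 stood at 34.0 CPM (31.0 to 37.2) there and at 1.29 and 0.0809 CPM in the same 2 classes. In thinned macrophage-like cells Cxcl10 was found in 8.43% (6.89 to 10.2) and Cxcl9 in 3.74% (2.72 to 5.00), against 0.224% and 0.0517% of mast cell-like cells (unthinned 8.72%, 3.84%, 0.444% and 0.107%).

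Cxcl12 (chromosome 6, 117168535–117181367, plus strand), which holds blood progenitors in stromal niches through Cxcr4, was the leading chemokine of the fibroblast-like class. It had 696 CPM (691 to 701) there, 49.9% of ligand UMIs of the class, 49.1 CPM (45.4 to 52.9) among macrophage-like and 12.2 CPM among mast cell-like cells. The macrophage-like level was above the 23.7 CPM that background allowed, and the mast cell-like level was not above its 15.4 CPM. Cxcl13, the B cell attractant, had 51.3 CPM (49.9 to 52.7) among fibroblast-like and 32.0 CPM (29.1 to 35.2) among macrophage-like cells. Cxcl16, made as a membrane protein that binds Cxcr6, had 158 CPM (151 to 165) among macrophage-like, 22.9 CPM among fibroblast-like and 2.56 CPM among mast cell-like cells. Cx3cl1, the membrane-bound ligand of Cx3cr1, was led by fibroblast-like cells at 11.3 CPM (10.6 to 11.9).

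The signalling receptors Ccr1, Ccr2 and Cxcr4 were led by macrophage-like cells. Ccr2, the receptor of Ccl2, Ccl7 and Ccl12 and a mark of recruited monocytes, stood at 173 CPM (166 to 180.1) there and at 1.5 and 0.741 CPM among mast cell-like and fibroblast-like cells. Ccr1, shared by Ccl3, Ccl6, Ccl7 and Ccl9, had 79.9 CPM (75.2 to 84.7) against 4.36 and 0.633 CPM among mast cell-like and fibroblast-like cells. Ccr1, Ccr2 and Ccr3 lie near each other on chromosome 9. Cxcr4, the receptor of Cxcl12, had 102 CPM (96.4 to 107) against 0.731 and 0.489 CPM.

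Cx3cr1, the receptor of Cx3cl1 and a marker of patrolling monocytes and tissue macrophages, was shared by mast cell-like cells. It stood at 101 CPM (95.9 to 107) among macrophage-like, 73.4 CPM (72.3 to 74.4) among mast cell-like and 7.33 CPM among fibroblast-like cells, a ratio of 1.38 (1.31 to 1.46) between the first 2. The annotated gene spans chromosome 9, 119901616–120069879 and overlaps Gorasp1, Csrnp1 and Xirp1 on its own strand, so that some of its UMIs could belong to them. Those genes had 1.52, 23.3 and 0.0515 CPM among mast cell-like cells and 4.02, 113 and 0.0731 CPM among macrophage-like cells, where Csrnp1 was thus above Cx3cr1 itself. The part of this overlap in the level of Cx3cr1 was not tested.

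The ligands and receptors of a pair often had their highest levels in different classes. For Cxcl12 and Cxcr4 the ligand was led by fibroblast-like and the receptor by macrophage-like cells. For Cx3cl1 and Cx3cr1 the ligand was led by fibroblast-like cells and the receptor was highest in macrophage-like and mast cell-like cells. For Ccl2 and Ccr2 the mast cell-like cells had the ligand at 1688 CPM and the receptor at 1.5 CPM, while macrophage-like cells had both. Ccl3, Ccl6 and Ccl9 and their receptor Ccr1 were led by macrophage-like cells on both sides. The receptors of several abundant ligands were nearly absent from the 3 classes: Cxcr2 had 0.951 CPM at most, Cxcr6 0.425, Cxcr5 0.878, Cxcr3 2.34 and Ccr9 1.67 CPM. Ccr3, the receptor of Ccl11 and Ccl24, was highest in mast cell-like cells at 5.65 CPM (5.37 to 5.94), and Ccr7 in macrophage-like cells at 5.27 CPM. These low receptors were singled out after their values were seen.

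The single member led by mast cell-like cells was an atypical receptor. Ackr1 (the Duffy antigen receptor; chromosome 1, 173331886–173333750, minus strand) binds many inflammatory chemokines, Ccl2 and Ccl7 among them, without G protein signalling. It stood at 18.5 CPM (18.0 to 19.0) among mast cell-like, 1.76 CPM among macrophage-like and 1.32 CPM among fibroblast-like cells, a 10.5-fold difference (7.07 to 16.5). Cadm3 overlaps it on the same strand and was also highest in mast cell-like cells (43.9 CPM, against 2.49 and 3.4 CPM among macrophage-like and fibroblast-like cells), so reads shared by both genes cannot be told apart here. With the mixed droplets kept in the other classes Ackr1 was no longer led by mast cell-like cells, and its ratio to the next class was then 1.27 on the log2 scale. Ackr3, a scavenger of Cxcl12, was highest in the same class as its ligand, at 8.89 CPM (8.32 to 9.49) among fibroblast-like cells, below the limit of 10 CPM. Ackr4, which takes up Ccl19 and Ccl25, and Ackr2, which takes up inflammatory CC ligands, reached 3.42 and 0.0791 CPM there.

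The other ligands were low in all 3 classes and are given after their values were seen. Ccl17, a ligand of Ccr4, was highest in mast cell-like cells at 6.89 CPM (6.58 to 7.21), while its partner ligand Ccl22 was highest in macrophage-like cells at 3.29 CPM and Ccr4 itself reached 0.327 CPM. Ccl26, the neighbour of Ccl24, had 71 UMIs over all macrophage-like cells, or 5.19 CPM. The mast cell-like class held 5 and the fibroblast-like class 0, where a count of 0 allows up to 0.0297 CPM (3 counts). Fibroblast-like cells were highest for Cxcl14 (7.69 CPM) and the neutrophil attractant Cxcl5 (3.79 CPM). Cxcl17 and Ccl28 stayed at or below 1.83 CPM in each class, and Ccl20, Xcl1, Cxcl15 and Ccl21a at or below 0.0731 CPM. Among receptors, Xcr1, Ccr6, Ccr8 and Ccr10 stayed at or below 0.366 CPM in each class. The other copies of Ccl27a held 1 UMI each in fibroblast-like cells. The rows with no UMI were Cxcr1, Ccl27b, both rows of Ccl21b, both of Ccl21c and 1 copy each of Ccl19 and Ccl21a. For these, 0 UMIs allow up to 0.0110 CPM among mast cell-like, 0.219 CPM among macrophage-like and 0.0297 CPM among fibroblast-like cells. For genes with near-identical copies these limits cover counted UMIs only, since shared reads may have been left out.

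Shares of cells with a UMI were compared after each cell was thinned to 6000 UMIs. This kept 17395 mast cell-like cells and left out 1285, kept 1150 macrophage-like cells and left out 490, and kept 3153 fibroblast-like cells and left out 133. Ccl2 was found in 99.0% (98.9 to 99.2) of mast cell-like, 92.4% of macrophage-like and 47.8% of fibroblast-like cells (unthinned 99.7%, 93.6% and 88.6%), with a median of 9, 7 and 0 UMIs. The gene was therefore detected in nearly every mast cell-like cell and not in a small part of them. Ccl7 was found in 56.5%, 74.2% and 26.4% in the same order (unthinned 70.6%, 76.5% and 66.1%).

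Among macrophage-like cells Ccl6 was found in 92.4% (90.8 to 93.9), Cxcl2 in 86.3% (84.1 to 88.2), Ccl9 in 80.9% and Ccl24 in 69.6% of thinned cells (unthinned 93.7%, 85.5%, 83.5% and 72.0%). The same genes were found in 4.80%, 9.67%, 2.32% and 5.72% of mast cell-like cells, where the levels of Ccl6 and Cxcl2 were not above background. Ccl4, Ccl12, Ccl3 and Ccl8 were found in 43.7%, 41.0%, 39.4% and 35.2% of macrophage-like cells, so these ligands were less widespread than Ccl6. Of the receptors, Cxcr4, Cx3cr1, Ccr2 and Ccr1 were found in 34.5%, 26.5%, 26.4% and 26.1% of macrophage-like cells. For Cx3cr1 the share was 31.3% (30.6 to 32.0) in the mast cell-like class, above that of the macrophage-like class although its CPM was lower, so no order is read from it, and 3.65% in the fibroblast-like class. In fibroblast-like cells Cxcl12 was found in 75.1% (73.5 to 76.6), Ccl8 in 24.3%, Cxcl1 in 23.0% and Ccl19 in 18.7% of thinned cells (unthinned 91.4%, 49.3%, 42.3% and 37.1%).

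**Figure D2:**
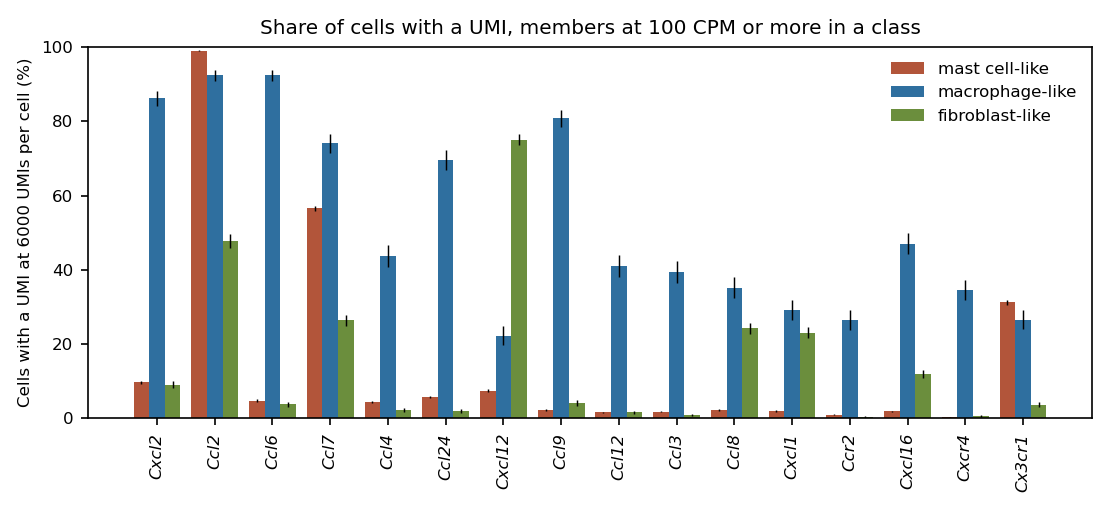
Percent of cells with at least 1 UMI after thinning to 6000 UMIs per cell, for members at 100 CPM or more in a class; bars are the 3 classes and lines the exact 95% binomial intervals. Ccl2 is found in most mast cell-like and macrophage-like cells (99.0% and 92.4%), Ccl6 and Cxcl2 in macrophage-like cells, and Cxcl12 in 75.1% of fibroblast-like cells.

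Mast cell-like cells fell into 6 clusters of at least 100 cells, made without the members. All 6 held Ccl2 and Ccl7, at different levels. Cluster 2, with the receptor genes Mrgprb1 and Mrgprb2 of connective tissue mast cells among its leading genes, had Ccl2 at 2413 CPM (2399.8 to 2426), and clusters 0, 4, 6, 8 and 7 had 1879.8, 1642, 1551, 1170.1 and 1055 CPM. Ccl7 stood at 924 CPM (916 to 933) in cluster 2 and at 321, 284, 258, 204 and 184 CPM in clusters 0, 4, 6, 7 and 8. Clusters 7 and 8, led by mitosis and histone genes of dividing cells, were thus lowest for both ligands.

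Of 8 members at 10 CPM in the class, 2, Ccl7 and Ccl4, were at least 4 times higher in the highest than in the lowest cluster (all genes, 6.06%), and the median ratio was 2.31 beside 1.67 over all genes at that level. Cluster 2 was also highest for Ackr1 (25.9 CPM), Ccl4 (22.4 CPM) and, below the limit of 10 CPM in the class, Ccl1 (23.2 CPM), Ccr3 (15.5 CPM) and Ccr1 (10.9 CPM). Cx3cr1 was instead highest in cluster 7, with 132 CPM (128 to 136), and lowest in cluster 6 at 50.0 CPM. Clusters 0, 2, 4 and 8 had 59.0 to 79.6 CPM of it. Against all other cells, the leading genes of cluster 6 included the DNA replication genes Mcm3 and Mcm4. The highest and the lowest cluster thus both had genes of dividing cells among their leading genes. Cluster 3, with 3448 cells, passed 7 of 7 mast cell markers but stayed unnamed because the basophil marker Prss34 was among its leading genes. Its values were near those of cluster 2, with Ccl2 at 2786, Ccl7 at 957, Ackr1 at 28.8 and Ccr3 at 16.1 CPM.

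**Figure D3:**
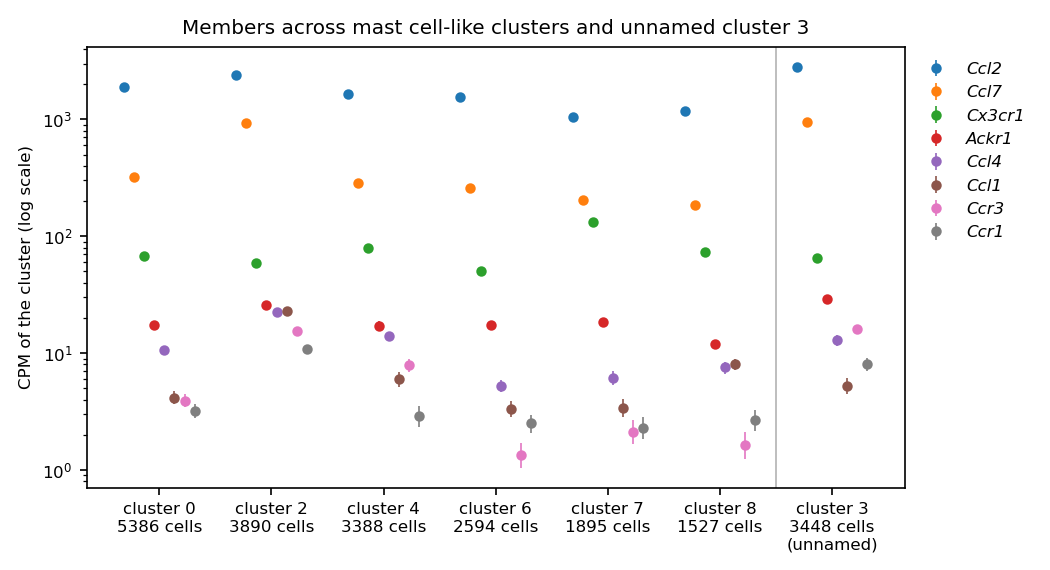
Level of 8 members in the 6 mast cell-like clusters and in the unnamed cluster 3 (right of the grey line), in CPM on a log axis with 95% counting intervals. Ccl7 is at 924 CPM in cluster 2 and 957 CPM in cluster 3 and at most 321 CPM in the others, and Cx3cr1 is highest in cluster 7.

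A small number of mast cell-like cells held much of the Ccl1, Ccl3 and Ccl4 RNA of the class. The 1% of cells (187) with most UMIs of each gene held 62.3%, 56.0% and 52.1% of its UMIs, while the same share for Ccl2 was 4.78%. Such a share is raised by a low level alone, so Ccl2, with a far higher level, is no like reference. The lowest count in these sets was 1 UMI for Ccl1 and Ccl3 and 2 for Ccl4, and ties at it were cut by cell order. The cells with most Ccl3 also held 36.6% of the Ccl1, 19.5% of the Ccl4 and 35.6% of the Il1b UMIs, with 1.24% of all UMIs and 2.01% of macrophage marker UMIs of the class. The cells with most Ccl7 held 33.7% of the Il1b, 25.3% of the Ccl1 and 20.4% of the Ccl3 UMIs, with 1.12% of macrophage marker UMIs. These genes therefore peaked in partly the same cells. The cells with most Ccl4 held 1.11% of all UMIs but 2.30% of macrophage marker, 7.81% of Cd74, 6.77% of Cxcr4 and 8 of 40 Cxcl3 UMIs, genes that were highest in macrophage-like cells. The part of macrophage RNA in these Ccl4 UMIs was not tested. In thinned mast cell-like cells, Ccl3 and Ccl4 were found together in 37 cells, 2.69 times (1.89 to 3.71) the 13.8 expected from both shares, and Ccl1 and Ccl4 in 35 cells, 1.66 times (1.16 to 2.31). Cells of 1 class share the library and may differ in state, so these ratios are descriptions.

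Macrophage-like cells were split further, again without the members, and 5 subclusters had at least 100 cells. Subclusters 0 and 3 had high levels of Lyve1 (888 and 1056 CPM) and Folr2, genes of resident vessel-wall macrophages, and subcluster 3 was led by interferon-induced genes such as Ifit2 and Irf7. Subcluster 2 had 739.7 CPM of Lyve1. Subcluster 1 had 69.3 CPM of Lyve1 and the highest H2-Aa (6732 CPM), an antigen presentation gene. Subcluster 4 was led by the neutrophil and monocyte genes S100a8, S100a9 and Chil3, and the part of other myeloid cells in its values was not tested.

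Of 22 members at 10 CPM in the class, 11 were at least 4 times higher in the highest than in the lowest of these subclusters (all genes, 9.61%), and the median ratio was 4.09 beside 1.90 over all genes at that level. One group of members was highest in subclusters 0 and 3, which had high Lyve1, as did subcluster 2. Ccl7 stood at 2207 and 2167 CPM there, against 899, 777 and 559 CPM in subclusters 1, 2 and 4. Ccl2 had the same order, with 2727 and 2481 CPM against 1524, 1243 and 1152 CPM. Ccl7 and Ccl2 were thus lower in subcluster 2, with high Lyve1, than in subcluster 1, with low Lyve1. Ccl8 stood at 387 and 404 CPM and was lowest in subcluster 1 at 95.4 CPM (84.0 to 108). Ccl24 was high in the 3 subclusters with high Lyve1, with 1086, 1008 and 879 CPM in 0, 3 and 2 and 162 and 268 CPM in 1 and 4. The receptor Ccr1 was high with them at 133 CPM (123 to 145) in subcluster 0 and 16.3 CPM (11.8 to 21.9) in subcluster 1.

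A second group was highest in the Lyve1-low subclusters 1 and 4. Cx3cr1 stood at 267 CPM (248 to 288) and 247 CPM (219 to 278) there and at 17.7, 27.5 and 62.0 CPM in subclusters 0, 3 and 2. Ccr2 had 380.0 CPM in subcluster 4 and 213 CPM in 1, against 74.9 to 126 CPM in the other three. Both receptor genes were therefore higher where Lyve1 was lower. The ligands Cxcl16 (366 and 218 CPM), Ccl4 (1631 and 1344 CPM) and Cxcl9 (106 and 58.8 CPM) were highest in the same 2 subclusters, 1 and 4. The Cxcl9 levels rest on few cells, since 17 cells held 76.6% of its UMIs in the class. Ccl6 separated them, with 2469 CPM in subcluster 4 and 543 CPM in subcluster 1, its lowest value.

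Other members varied less or followed the interferon-led subcluster. Cxcl10 and Ccl12 were highest in subcluster 3, at 71.6 CPM (57.3 to 88.4) and 838 CPM (787 to 892). Cxcr4 stayed within 1.80-fold over the 5 subclusters. Cxcl2 was lowest in subcluster 2 at 2410.3 CPM and otherwise between 4403 and 5796 CPM. Cxcl13 was nearly confined to subcluster 6, with 45 cells led by Dnah12, C9 and Marco, at 879 CPM against 18.3 CPM or less in the subclusters of at least 100 cells. In the class as a whole 17 cells held 95.9% of its UMIs, so this level rests on few cells. In thinned macrophage-like cells Ccr2 and Cx3cr1 were found together 1.49 times (1.23 to 1.78) as often as both shares give, and Cxcl9 and Cxcl10 4.14 times (2.31 to 6.82).

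**Figure D4:**
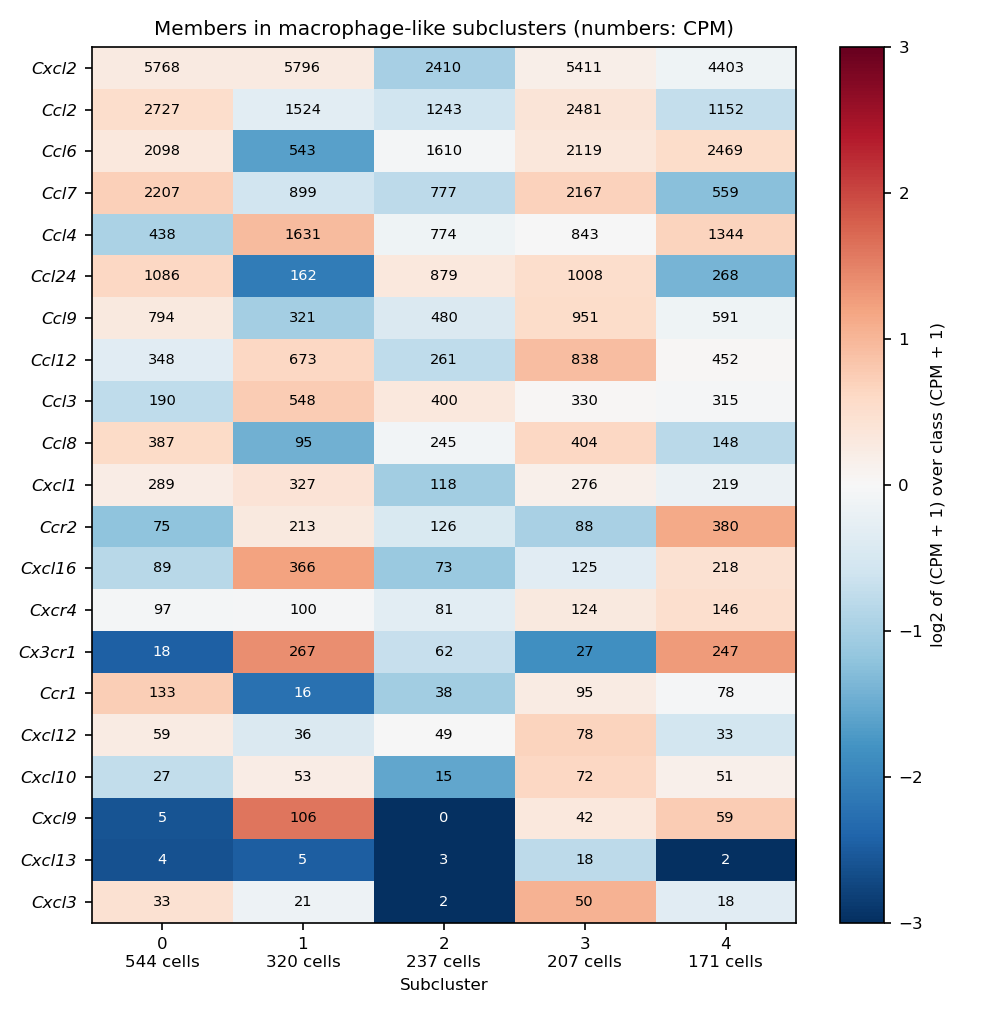
Level of members at 10 CPM or more in macrophage-like cells in the 5 subclusters with at least 100 cells; numbers are CPM and colours give log2 of the subcluster level over the class level, both plus 1 CPM. Ccl7, Ccl24 and Ccr1 are red in subcluster 0, and Cx3cr1, Cxcl16 and Cxcl9 are red in subcluster 1 and blue in subcluster 0.

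Fibroblast-like cells gave 8 subclusters of at least 100 cells. Cxcl12 was found in all 8 and was highest in subcluster 3, led by C7 and Abi3bp, at 2087 CPM (2062 to 2113). Subcluster 1, led by H19, Saa3 and C3, followed with 1010.0 CPM, and the dividing subcluster 5 was lowest with 286 CPM. The Cfd- and Adipoq-led subcluster 6 had 807 CPM. Of 13 members at 10 CPM in the class, 7 spread by 4 times or more (all genes, 15.0%), with a median ratio of 4.23 beside 2.14 over all genes at that level.

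Subcluster 6 was highest for Ccl19 (244 CPM, 232 to 257), Cxcl13 (272 CPM), Cxcl1 (227 CPM) and Ccl11 (62.9 CPM). Adipoq, an adipocyte gene, stood at 81.6 CPM in it and at 3.52 CPM or less in the other seven. Ccl19 stood at 151 CPM in subcluster 3 and between 7.70 CPM (subcluster 4) and 87.2 CPM (subcluster 1) in the others. Ccl8 was highest in subclusters 3 and 1 (193 and 155 CPM) and lowest in 7 (14.3 CPM). Ccl2 hardly differed, between 128 and 187 CPM. Subclusters 4, 5 and 7, of which 4 was led by Chrm3 and Crabp1 and 7 by Ptn and Clca3a1, were low for Ccl11, Ccl19 and Ccl8 together. Cxcl12 and Ccl19 were found in the same thinned cells 1.21 times (1.11 to 1.32) as often as both shares give. Cxcl13 was again held by few cells, 74.3% of its UMIs in 33 cells, and Ackr3 had 24.3, 23.1 and 19.1 CPM in subclusters 2, 6 and 1 and at most 9.13 CPM in the others.

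**Figure D5:**
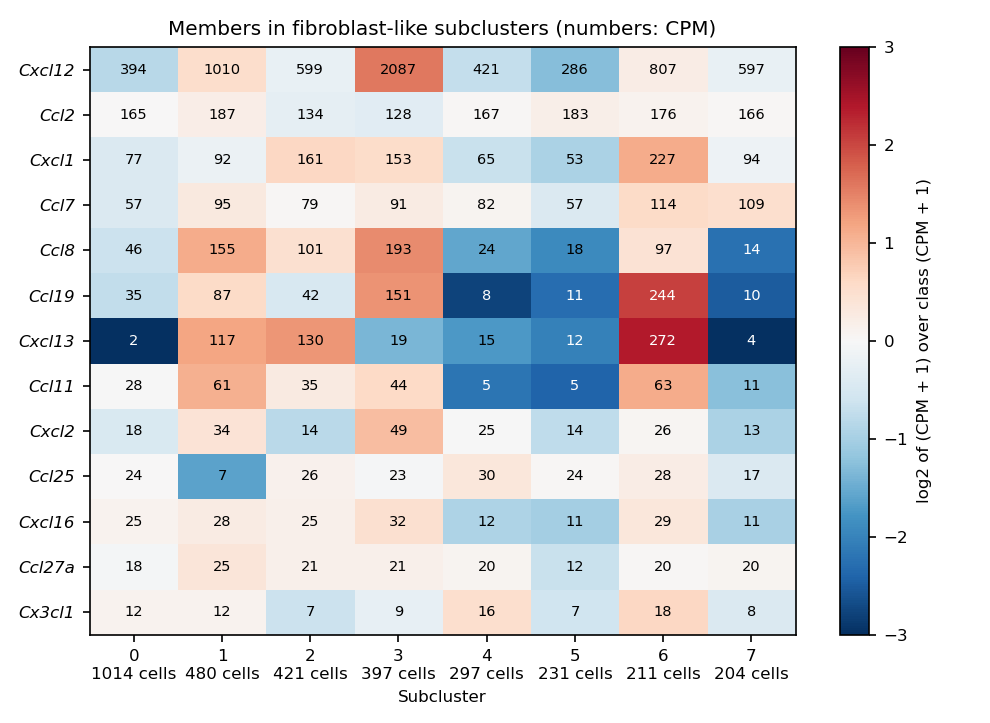
Level of the 13 members at 10 CPM or more in fibroblast-like cells in the 8 subclusters with at least 100 cells; numbers are CPM and colours give log2 of the subcluster level over the class level, both plus 1 CPM. Cxcl12 is reddest in subcluster 3, Ccl19 and Cxcl13 in subcluster 6, and Ccl2 is pale throughout.

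The early-response and NF-κB target genes, which are known to be induced with chemokines on cell isolation and on activation, were mostly highest in macrophage-like cells (13 of 16 listed genes). Macrophage-like cells led 7 of them (all genes, 2.08%), and 0 were led by fibroblast-like cells (all genes, 3.23%) or by mast cell-like cells (all genes, 1.44%), with median levels of 677 CPM among macrophage-like, 169 CPM among fibroblast-like and 60.2 CPM among mast cell-like cells. The inhibitor Nfkbia stood at 666, 155 and 24.9 CPM and Atf3 at 1329, 28.1 and 5.21 CPM in the same order. Tnf, Ier3 and Il6 were highest in mast cell-like cells instead, at 118, 1356 and 67.1 CPM, against 71.5, 606 and 49.4 CPM among macrophage-like and 3.57, 197 and 52.4 CPM among fibroblast-like cells. The part of digestion and sorting in the chemokine levels was not tested.

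Chemokine receptor signalling genes, such as G protein subunits, arrestins and the Rac activator Dock2, were mostly shared by mast cell-like and macrophage-like cells. Of 18, 3 were led by macrophage-like cells (all genes, 2.08%), Pik3r5 and Prex1 among them. Mast cell-like cells led 1, Rac2 (all genes, 1.44%), and fibroblast-like cells 0 (all genes, 3.23%). Dock2 stood at 478 CPM among macrophage-like, 253 CPM among mast cell-like and 5.78 CPM among fibroblast-like cells. Of 10 chemokine-related genes outside the naming rule, 3 (Pf4, Ccrl2 and Cd74) were led by macrophage-like cells (all genes, 2.08%). Fibroblast-like cells led 2, Rarres2 and Mif (all genes, 3.23%), and mast cell-like cells 0 (all genes, 1.44%). Pf4, the platelet chemokine also named Cxcl4, reached 3216 CPM among macrophage-like cells.

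The tags Cafum, Matrigel and Macrophages are counted in the matrix, and the labels do not say what their suspensions were. The Cafum tag was called on 71.2% of mast cell-like, the Macrophages tag on 94.6% of macrophage-like and the Matrigel tag on 66.3% of fibroblast-like cells. Class and suspension can therefore not be told apart. Among cells with no tag called, mast cell-like cells had Ccl2 at 1711 CPM and Ccl7 at 417 CPM, and those with the Cafum tag 1689 and 382 CPM. Fibroblast-like cells had Cxcl12 at 762 CPM with no tag and 677 CPM with the Matrigel tag. Other members differed more by tag within a class. In the same order, fibroblast-like cells had Cxcl13 at 31.6 and 61.1 CPM and Ccl11 at 41.7 and 24.8 CPM. Mast cell-like cells with no tag had Ccl1 at 16.1 CPM, Ccl4 at 15.4 CPM and Ccl17 at 4.97 CPM. With the Cafum tag these stood at 6.89, 9.95 and 7.32 CPM.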

How the data were processed

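The authors deposited raw UMI counts per gene and barcode, with no normalization, and per the file headers the counter was Cell Ranger 7.0.0; STAR, R 4.1.3, Seurat 4.1.1 and the build mm10 stand in the submitters' processing notes. The use of strand and of intronic reads is not given in the sources used here. The tag features, 21.9% of all UMIs, were kept out of gene totals, and the library of tags alone was not used here. Cells needed at least 500 genes, 1000 UMIs and at most 10% mitochondrial UMIs. Scrublet called 3245 barcodes (9.32%) as doublets, but only 37.1% of simulated doublets passed its threshold, so doublets remain. The 30755 cells kept had a median of 12728 UMIs and gave 14 Leiden clusters at resolution 0.5 (scanpy 1.11.5, leidenalg 0.10.2, Python 3.11.15) on 2000 variable genes without the members and listed genes.

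A cluster was named from marker genes and its leading genes, and the rule for mixed droplets and the clustering of macrophage-like and fibroblast-like cells on their own were chosen after seeing the data. UMIs were summed per class and given as CPM with exact Poisson intervals (scipy 1.17.1), and shares of cells with exact Clopper-Pearson intervals. With 1 library there is no test, and PCR copies are removed by the UMI only. Members at 10 CPM or more in a class are named with their values in all 3 classes, those at 100 CPM in most detail. The members, lists and thresholds were chosen with earlier results of these data known. Positions are from GENCODE M21 (GRCm38) by gene ID, and promoter windows from RefSeq (GRCm38.p6). Counts of members cover every row of the rule, but some results are not reported here. The computation of leading classes was tested on simulated data. Alternatives changed the barcode filter, doublet removal, resolution, naming, mixed droplets, tag, top cells, CPM minimum and ratio.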

Additional observations from a re-analysis of the deposited data

How the results depend on the processing

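No ratio of a named member's highest class to the next changed sign under the alternatives run. The number of members at 10 CPM or more in mast cell-like cells was 8, and it was 13 at a minimum of 5 CPM and 3 at 20 CPM. The number led by mast cell-like cells went from 1 to 0 with mixed droplets kept and, under minima added after seeing the data, to 4 at 5 CPM (Ackr1, Ccl1, Ccl17 and Ccr3) and 0 at 20 CPM. The number led by fibroblast-like cells was 5, and it was 3 at 20 CPM. The other counts of members stayed within 1.5 times of their value. With mixed droplets kept, log2 ratios of a member's highest class to the next moved outside their counting interval for 22 of 28 members, to 1.27 for Ackr1, 6.50 for Cxcl2 and 6.73 for Ccl6, all lower than with these droplets set aside. With cells of the most frequent tag alone, the ratio of Cxcr4 (7.81) was more than 1.5 times higher. Leaving out the 1% of cells with most UMIs of each member moved 23 ratios, by more than 1.5 times and upward for members that include Ackr1, Ccl3, Ccl4, Ccl11, Ccl19, Ccr2, Cx3cl1, Cxcl2, Cxcl3, Cxcl10, Cxcl13 and Cxcr4. The ratio of Cxcl13 was 0.68, 3.32 without these cells and 0.04 under a 5% limit on mitochondrial UMIs. Resolution 1, the members left in the clustering and small clusters left out moved none. The cause of these moves was not tested, except that the alternatives change which cells enter. Depth limits members under about 1 CPM, mainly in macrophage-like cells, where 3 counts are 0.219 CPM. No paired analysis was possible because 1 library was analysed.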
